A study of Drosophila melanogaster with 12 samples.

Results

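Cells of wild-type Drosophila melanogaster brains that were sorted as Rfx-expressing by their GFP were compared with the GFP-negative cells of such brains, early in the third larval instar. The comparison rests on 6 of the 12 RNA-seq libraries of the series, 3 of wild-type GFP-positive cells and 3 of wild-type GFP-negative cells. Its members are the 9912 genes, of 12610 in the deposited table, with a value of at least 1 in 3 or more of the 12 libraries. Brains were dissociated, the cells were sorted by fluorescence, and each library was made from 4 ng of total RNA. The other 6 libraries came from the same sort of rfx KO (knockout) brains, 3 GFP-positive and 3 GFP-negative, and are given only beside the wild-type values. All 12 libraries share the GFP sort and the brain as tissue, and all are labelled as neurons. The labels give neither the GFP construct, nor the knockout allele, nor the animals behind each replicate, and p-values here describe library-to-library spread that may be technical.

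Rfx is a transcription factor of the regulatory factor X family, which binds X-box motifs in promoters of genes needed to build cilia. In Drosophila most cells of the body carry no cilium, and the best known ciliated cells of somatic tissue are type I sensory neurons outside the brain. Ciliary assembly needs intraflagellar transport, in which kinesin-2 carries subunit complexes A and B outwards, and a transition zone that gates the ciliary base. The larval brain holds neural stem cells called neuroblasts, their dividing progeny, neurons of many transmitter types and glia.

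The deposited values, written below as normalised reads, are reads per gene over a scaled library size, so they compare a gene between libraries and are not corrected for gene length. In the 6 wild-type libraries 1 read is worth 0.0359 to 0.0465, so a value of 1 stands for many reads. The wild-type GFP-positive libraries held 28418575, 27216761 and 27514179 reads in genes, and the wild-type GFP-negative libraries 20301256, 22337122 and 24343626. Reads of rRNA genes made up 12.2% of the second GFP-positive library, against 0.320% to 0.976% in the other 5. That library stood apart for several neuropeptide and receptor genes as well, and some results that rest on it are also given without it. Across the 6 libraries the first principal component separated both groups and held 75.5% of the variance, and the second held 13.4%.

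In limma's moderated test over all 12 libraries with Benjamini-Hochberg adjustment, 3765 genes, 38% of those tested, were called at an adjusted p under 0.05. Of these, 2550 (25.7%) were higher and 1215 (12.3%) lower in GFP-positive cells, and 4628 genes had an unadjusted p under 0.05. The split depended on the scaling, since GFP-positive columns summed to 1020350, 1264329 and 1022234, against 807057, 953078 and 915936 in GFP-negative columns. Rescaling every library to the same total gave 1133 higher and 2263 lower genes, and moved the median log2 change of all genes to -0.18, against 0.09 as deposited. DESeq2's size factors gave 2048 higher and 1899 lower, and edgeR's scaling gave 1953 higher and 1560 lower. Changes are therefore given below with the list medians under both scalings, to be read against those medians of all genes. "Higher" and "lower" below mean called in the test as deposited, and a paired fit is the same model with libraries of adjacent sample numbers as a block. List counts are to be read against the 25.7% higher and 12.3% lower of all genes. Counts in the paired fit are to be read against its 3165 higher and 1739 lower of the 9912 genes.

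Differences of at least 2-fold were split more evenly, at 581 genes higher (5.86%) and 660 lower (6.66%), although rescaling left 293 of that size in the higher direction. The libraries did not overlap for 1232 of these 1241. Without the second GFP-positive library 453 genes were at least 2-fold higher and 658 lower, and 89.5% of the 581 were still called. Over all genes tested, 33% had every GFP-positive library above every GFP-negative one, and 15.2% had every one below. Falls were deeper than rises. A log2 change of 3 or more in size was reached by 27 higher and 136 lower genes, and a change of 4 or more by 8 higher and 45 lower genes. By their medians, genes called higher were the longest and most abundant, with a median span of 4.38 kb and a median level of 75.6 normalised reads. Genes called lower had medians of 3.31 kb and 17.4 normalised reads, and genes not called had 2.43 kb and 19.1.

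**Figure D1:**
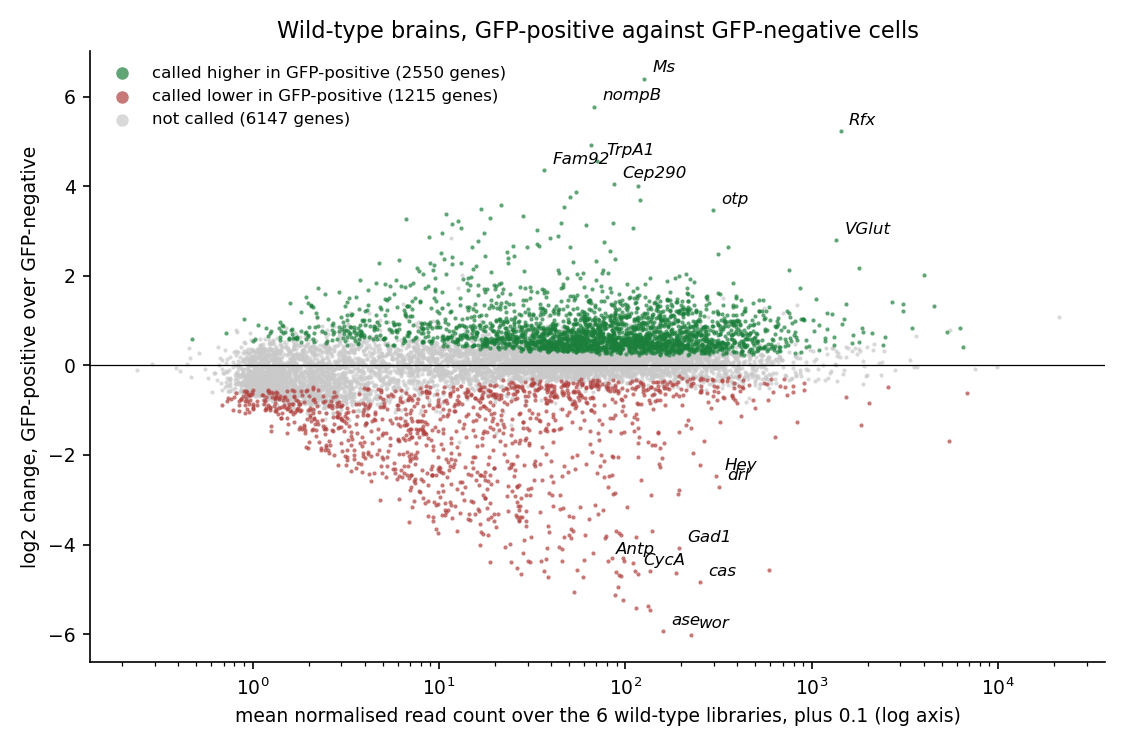
Each point is 1 of 9912 genes, with its mean over the 6 wild-type libraries plus 0.1 on a log x axis and its log2 change, GFP-positive over GFP-negative, as deposited, on the y axis. The deepest falls reach -6.01 (wor), and the largest rise is 6.40 (Ms). Green and red mark genes called higher and lower, a split that reverses to 1133 and 2263 after rescaling.

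Rfx itself (chromosome arm 3R, 10361760 to 10378068, minus strand, annotation BDGP6.54) had 2918, 2542 and 2918 in GFP-positive libraries, against 73.5, 74.1 and 73.5 in GFP-negative libraries. Its log2 change was 5.22 ± 0.11 (SE, n = 3 each, limma adjusted p = 1.56e-11), the smallest adjusted p of any gene in the comparison. The transcript followed the sort in each of the 6 libraries. In these bulk libraries, fewer cells of a type and less RNA per cell cannot be told apart, here and for every gene below.

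Both fractions are labelled as neurons, and neuronal markers were present in both. Summed over 6 neuronal markers, GFP-positive libraries held 8265, 9616 and 7981 normalised reads, against 4208, 4582 and 3921 in GFP-negative libraries, and 5 of the 6 were called higher, Syt1 and brp only as deposited and not after rescaling or without some single libraries. The exception was elav, an RNA-binding protein made by all neurons, with 559, 667 and 526 in GFP-positive libraries, against 658, 704 and 615 in GFP-negative libraries, although 34% of its exonic length overlaps other genes. The GFP-negative fraction was not neuronal alone. Neuroblast markers (dpn, wor, ase, mira, insc) summed to 930, 1136 and 1054 there, against 21.5, 17.8 and 19.9 in GFP-positive libraries, and all 5 were called lower. Of 6 glial markers gcm, Eaat1 and wrapper were lower, wrapper not when the third library of either fraction was left out. Not called were repo, with means of 17.7 in GFP-positive and 17.8 in GFP-negative libraries, alrm and moody. The 6 summed to 76.4, 65.6 and 36.3 in GFP-positive libraries, against 277, 354 and 349 in GFP-negative libraries. Eaat1 alone made up 173, 239 and 227 of the latter. Hemocyte markers, of which Pxn alone was called, summed to 77.7, 53.8 and 47.8 in GFP-positive libraries, against 29.2, 18.9 and 17.7 in GFP-negative libraries, and fat body markers to 0.683 to 5.29 over all 6. Markers of ciliated sensory neurons outside the brain were low in both fractions, at 8.37, 10.5 and 8.77 in GFP-positive libraries, against 20.0, 7.89 and 9.82 in GFP-negative libraries. The part of neuroblasts and glia in any difference below was not tested.

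**Figure D2:**
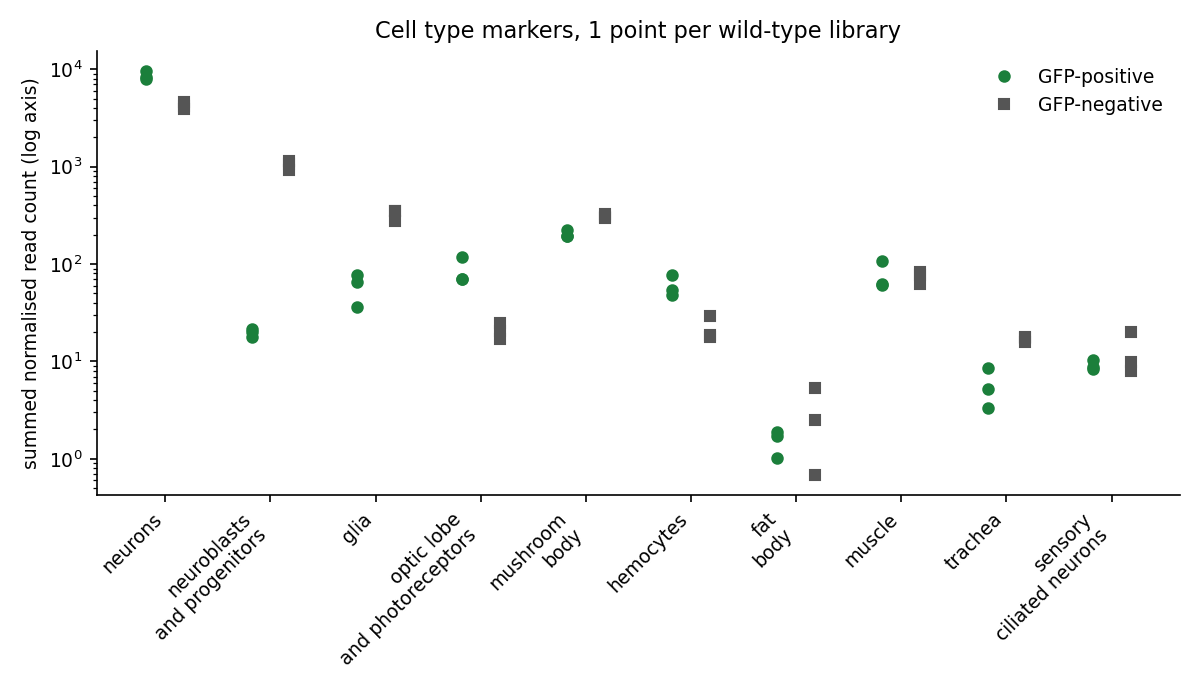
Summed normalised reads of each marker list (log y axis), 1 point per wild-type library, GFP-positive left of GFP-negative. Neuroblast sums are 17.8 to 21.5 in GFP-positive libraries and 930 to 1136 in GFP-negative libraries; neuronal sums are 7981 to 9616 and 3921 to 4582.

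The largest rises came from genes of unlike function. Ms, which encodes the neuropeptide myosuppressin, had 127, 463 and 159.9 in GFP-positive libraries, against 1.83, 1.32 and 1.39 in GFP-negative libraries. That is a ratio of means of 165, and of 94.6 without the second GFP-positive library. TrpA1, a channel gated by heat and irritants, had 86.2, 168 and 157 in GFP-positive libraries, against 5.61, 3.67 and 4.74 in GFP-negative libraries, a log2 change of 4.56 ± 0.25 (SE, n = 3 each, limma adjusted p = 2.70e-08). Cht6, of the chitinase family, had 288, 167 and 205.1 in GFP-positive libraries, against 21.7, 6.95 and 12.2 in GFP-negative libraries. Ms and TrpA1 were highest in the second GFP-positive library, and Cht6 in the first. CG15082, whose role is not given here, had 59.7, 245 and 80.3 in GFP-positive libraries, against 2.70, 2.86 and 2.11 in GFP-negative libraries, a ratio of 50.2, and of 27.4 without the second GFP-positive library. CG4476 and CG30203 were also among the largest, but with a GFP-positive library 3 well below the other two: CG30203 had 41.8, 45.3 and 8.47 in GFP-positive libraries, against 2.35, 1.11 and 0.865 in GFP-negative libraries. In each of these genes every GFP-positive library lay above every GFP-negative one.

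The abundant genes that were at least 2-fold higher included IA-2, a phosphatase-like protein of dense-core vesicles, with 4502, 10093 and 4977 in GFP-positive libraries, against 1401, 1973 and 1223 in GFP-negative libraries. Appl, the amyloid precursor protein homologue of fly neurons, had 4307, 4274 and 4348 in GFP-positive libraries, against 1825, 1993 and 1748 in GFP-negative libraries. The translation elongation factor eEF1alpha2 had 3948, 4186 and 3593 in GFP-positive libraries, against 1344, 1567 and 1516 in GFP-negative libraries. The GFP-positive libraries agreed closely for Appl and eEF1alpha2, while the second one was highest for IA-2. The non-coding RNA noe had 6769.9, 5394 and 7228 in GFP-positive libraries, against 2038, 2760.1 and 2999 in GFP-negative libraries. For noe the groups did not overlap. The most abundant genes that were at least 2-fold lower included the non-coding RNA cherub, known from neuroblasts, with 2242, 2585 and 2888 in GFP-positive libraries, against 7099, 10015 and 7879 in GFP-negative libraries. His2Av, a histone variant, had 299, 305 and 335 in GFP-positive libraries, against 737, 1088 and 1048 in GFP-negative libraries. HmgD, a chromatin protein, had 1006, 1030.4 and 1082 in GFP-positive libraries, against 2175, 2917 and 2842 in GFP-negative libraries. For all 3 the groups were well apart. CG14989, with no role given here, stood out among abundant genes with 53.7, 59.7 and 31.2 in GFP-positive libraries, against 955, 1349 and 1088 in GFP-negative libraries, a ratio of means of 23.5 in favour of GFP-negative cells.

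Ciliary genes were higher in some subgroups and lower in others. Of 15 genes listed for intraflagellar transport complex B, 7 were tested and 5 were higher, against 25.7% of all genes, with a median log2 change of 1.85 as deposited and 1.62 after rescaling. One of the 5, Ttc30, reached the minimum value in 3 libraries only through wild-type GFP-positive ones, which favoured a rise. Without it 4 of 6 were higher. IFT57 reached the minimum value only through GFP-positive libraries of the 2 genotypes together, and without both genes 3 of 5 were higher. The steepest rise was that of nompB, the IFT88 subunit (arm 2L, 21578292 to 21589423, minus strand), with 140.2, 128 and 135 in GFP-positive libraries, against 1.87, 1.07 and 1.54 in GFP-negative libraries and a log2 change of 5.78 ± 0.27 (SE, n = 3 each, limma adjusted p = 7.47e-09). IFT57 had 11.96, 10.7 and 15.3 in GFP-positive libraries, against 0.716, 0.213 and 0.301 in GFP-negative libraries, a ratio of means of 30.9, and of 49.2 without the first GFP-negative library. IFT52 had 26.3, 20.3 and 23.7 in GFP-positive libraries, against 2.62, 1.11 and 1.35 in GFP-negative libraries. In all 3 the GFP-negative libraries sat at or under 3 normalised reads. IFT54 did not follow, with 1.36, 1.02 and 1.04 in GFP-positive libraries, against 0.994, 1.11 and 0.941 in GFP-negative libraries and an adjusted p of 0.7.

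Complex A and the motors moved less. The complex A list had 3 of 5 tested members higher and 1 lower, with a median log2 change of 0.77 as deposited and 0.48 after rescaling. Oseg1, a WD-repeat subunit of complex A, had 35.5, 35.5 and 35.5 in GFP-positive libraries, against 17.5, 18.2 and 17.3 in GFP-negative libraries; 16% of its exonic length overlaps other genes, from which unstranded reads cannot be told apart. Oseg6, another such subunit, had 38.8, 33.0 and 36.0 in GFP-positive libraries, against 22.3, 18.5 and 21.1 in GFP-negative libraries, a call lost after rescaling. IFT43, a small subunit, had 9.23, 7.94 and 10.6 in GFP-positive libraries, against 3.22, 4.95 and 3.12 in GFP-negative libraries. The kinesin-2 motor subunits and their accessory protein were all higher and already abundant in GFP-negative cells. Klp68D had 244, 263 and 229 in GFP-positive libraries, against 88.1, 91.8 and 86.8 in GFP-negative libraries. Klp64D had 168, 168 and 148 in GFP-positive libraries, against 74.5, 80.9 and 93.6 in GFP-negative libraries. Kap3 had 270.2, 275 and 256 in GFP-positive libraries, against 130.4, 147 and 129 in GFP-negative libraries. Kinesin-2 also carries cargo in axons. The dynein 2 heavy chain btv, which drives the return transport, was at 3.41, 3.16 and 5.09 in GFP-positive libraries, against 6.12, 3.11 and 4.03 in GFP-negative libraries and was not called.

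Of 18 genes listed for the transition zone, 7 were tested. B9d1 and Cby reached the minimum value only through wild-type GFP-positive libraries, which favoured a rise. Of the other 5, 3 were higher, and 1 gene of the list was lower in the paired fit. Fam92, a protein of the ciliary base, had 67.6, 62.8 and 82.0 in GFP-positive libraries, against 2.39, 2.56 and 2.48 in GFP-negative libraries, a log2 change of 4.36 ± 0.22 (SE, n = 3 each, limma adjusted p = 1.37e-08). Cep290, a large scaffold of the transition zone, had 192, 121 and 182 in GFP-positive libraries, against 10.1, 7.72 and 8.84 in GFP-negative libraries. Both had low values in GFP-negative libraries. The dilatory gene dila, which acts beside Cep290 at the ciliary base, had 30.1, 23.04 and 33.5 in GFP-positive libraries, against 4.41, 2.56 and 3.20 in GFP-negative libraries. B9d1, of the MKS module, was low in both, with 3.63, 2.56 and 3.38 in GFP-positive libraries, against 0.636, 0.171 and 0.602 in GFP-negative libraries. None of these 4 genes overlapped between the groups, and Cep290 and dila were lowest in the second GFP-positive library.

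Among BBSome, GTPase and rootlet genes the picture was mixed, with 5 of 13 higher, 2 lower and a median log2 change of 0.32 as deposited and 0.02 after rescaling, when 2 were higher and 3 lower. Arl6, BBS1 and dnd reached the minimum value only through wild-type GFP-positive libraries. Without them 3 of 10 were higher, a share near the 25.7% of all genes, and the median as deposited was -0.02. The small GTPase dnd, the Arl3 orthologue, had 8.33, 9.29 and 7.50 in GFP-positive libraries, against 1.43, 0.640 and 0.790 in GFP-negative libraries, with 26% of its exonic length overlapping CG6678. Root, the ciliary rootlet protein, had 39.9, 26.4 and 34.3 in GFP-positive libraries, against 18.7, 17.5 and 13.5 in GFP-negative libraries, a call lost after rescaling. The tubby homologue ktub ran the other way, with 12.7, 17.1 and 16.7 in GFP-positive libraries, against 65.9, 88.3 and 78.9 in GFP-negative libraries. Genes of motile axonemes were mostly low in both fractions, and 2 of 15 were higher, with a median log2 change of -0.29 as deposited and -0.50 after rescaling and 3 lower in the paired fit. Those 2 were hmw (hemingway), which acts in axoneme assembly and reached the minimum value only through wild-type GFP-positive libraries, and nmdyn-D7, the NME7 orthologue. hmw had 19.2, 23.9 and 18.8 in GFP-positive libraries, against 1.59, 0.597 and 1.17 in GFP-negative libraries. For nmdyn-D7 the values were 21.1, 18.95 and 25.6 in GFP-positive libraries, against 7.51, 8.19 and 9.97 in GFP-negative libraries.

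Centriole and centrosome genes went the opposite way, with 22 of 33 lower, 3 higher and a median log2 change of -0.70 as deposited and -0.99 after rescaling, when 24 were called, all lower. Leaving out 2 that reached the minimum value only through GFP-negative libraries gave 20 lower and 3 higher of 31. The mitotic kinase polo had 10.1, 7.94 and 8.92 in GFP-positive libraries, against 180.2, 234 and 218 in GFP-negative libraries. The pericentriolar protein spd-2 had 11.2, 6.83 and 12.1 in GFP-positive libraries, against 72.6, 80.5 and 83.1 in GFP-negative libraries. The centriole protein Poc1 had 2.73, 2.88 and 4.31 in GFP-positive libraries, against 24.6, 36.1 and 31.7 in GFP-negative libraries. These genes also serve dividing cells, whose markers fell in the same libraries, and a link between both falls was not tested.

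**Figure D3:**
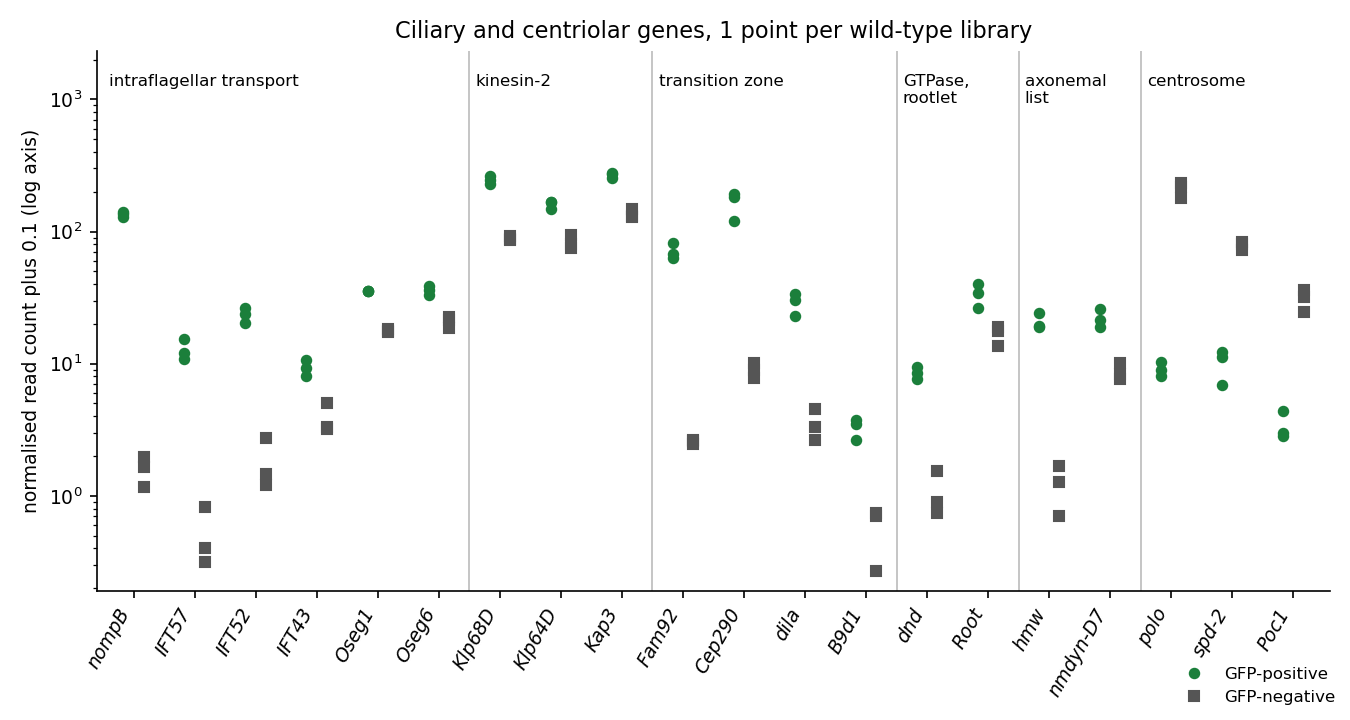
Normalised reads plus 0.1 (log y axis) of ciliary and centrosomal genes, 1 point per wild-type library, GFP-positive left of GFP-negative. From nompB to nmdyn-D7 every GFP-positive point lies above every GFP-negative point, and for polo, spd-2 and Poc1 every one lies below; the calls for Oseg6 and Root are lost after rescaling.

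The Hedgehog pathway signals through primary cilia in vertebrates. Of its 21 tested fly genes, 9 were higher and 4 lower, with a median log2 change of 0.28 as deposited and -0.02 after rescaling, so the sign of its median turned with the scaling, and rescaling gave 5 higher and 5 lower. Those lower by at least 2-fold were the receptors and the effector. The Hedgehog receptor ptc had 14.3, 12.9 and 21.3 in GFP-positive libraries, against 42.9, 43.9 and 47.9 in GFP-negative libraries. Its co-receptor ihog had 6.53, 7.39 and 7.28 in GFP-positive libraries, against 25.6, 32.3 and 22.8 in GFP-negative libraries. The related co-receptor boi had 12.4, 7.80 and 14.9 in GFP-positive libraries, against 32.0, 45.02 and 40.3 in GFP-negative libraries. All 3 receptors were lower in every GFP-positive library. The transcription factor ci had 18.5, 14.5 and 17.8 in GFP-positive libraries, against 62.8, 115 and 94.5 in GFP-negative libraries, and cos, the kinesin-like scaffold that acts on ci, was higher, with 181, 169 and 154 in GFP-positive libraries, against 106, 98.2 and 94.1 in GFP-negative libraries.

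Fast transmitter genes were higher in 7 of 11, against 25.7% of all genes, and lower in 2, with a median log2 change of 0.97 as deposited and 0.67 after rescaling, when 4 were called higher and 2 lower. VGlut, the vesicular glutamate transporter, had 1898, 3262 and 1978 in GFP-positive libraries, against 311, 367 and 322 in GFP-negative libraries, a log2 change of 2.79 ± 0.29 (SE, n = 3 each, limma adjusted p = 9.93e-06). Gad1, which makes GABA, had 19.3, 31.5 and 13.97 in GFP-positive libraries, against 296, 446 and 357 in GFP-negative libraries, a log2 change of -4.08 ± 0.43 (SE, n = 3 each, limma adjusted p = 1.06e-05). The acetylcholine synthase ChAT had 86.7, 149 and 93.8 in GFP-positive libraries, against 71.8, 89.1 and 63.9 in GFP-negative libraries, and with an adjusted p of 0.144 it was not called, though the paired fit called it higher. Markers of glutamate and GABA neurons thus lay on opposite sides. The amino acid transporter Eaat2 had 404, 458 and 342 in GFP-positive libraries, against 137, 148 and 130.0 in GFP-negative libraries. The glial glutamate transporter Eaat1 had 16.4, 13.5 and 12.3 in GFP-positive libraries, against 173, 239 and 227 in GFP-negative libraries.

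Monoamine genes split by transmitter. The list had 5 of 13 higher and 3 lower, with a median log2 change of 0.91 as deposited and 0.61 after rescaling, when 3 were called higher and 3 lower. Tyrosine hydroxylase, ple, the first step to dopamine, had 18.5, 80.6 and 34.2 in GFP-positive libraries, against 5.41, 7.81 and 5.15 in GFP-negative libraries, a ratio of 7.25, and of 4.30 without the second GFP-positive library. Serotonin genes were lower. Tryptophan hydroxylase Trhn had 6.53, 2.69 and 2.90 in GFP-positive libraries, against 34.7, 72.6 and 55.9 in GFP-negative libraries. The serotonin transporter SerT had 1.44, 0.604 and 1.19 in GFP-positive libraries, against 10.3, 17.2 and 11.1 in GFP-negative libraries. Histidine decarboxylase Hdc, which makes histamine, had 1.08, 0.557 and 1.37 in GFP-positive libraries, against 10.7, 14.8 and 12.8 in GFP-negative libraries. None of these 4 genes overlapped between the groups. Vmat, the vesicular transporter that all monoamine neurons share, had 182, 499.9 and 318 in GFP-positive libraries, against 149.6, 224 and 129 in GFP-negative libraries and was not called (adjusted p 0.201), but was called higher in the paired fit.

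Neuropeptide genes were called in both directions, at 6 each of 35 as deposited (17.1%, against 25.7% higher and 12.3% lower over all genes). The paired fit gave 12 higher and 11 lower, and quantile normalisation 10 higher and 4 lower. Their median log2 change was -0.09 as deposited and -0.27 after rescaling, when 6 were called higher and 9 lower. Leaving out 8 with the minimum value in fewer than 3 libraries of one fraction or the other gave 6 higher and 5 lower of 27. The median of the 27 was 0.41 as deposited. After Ms came AstC, allatostatin C, with 77.1, 443 and 165 in GFP-positive libraries, against 12.04, 15.5 and 11.6 in GFP-negative libraries, followed by the gene of CNMamide, CNMa, with 9.55, 86.3 and 28.4 in GFP-positive libraries, against 1.39, 1.71 and 1.47 in GFP-negative libraries. CCHa1, another brain and gut peptide, had 18.4, 49.3 and 27.2 in GFP-positive libraries, against 2.58, 4.27 and 2.07 in GFP-negative libraries. All 3 were highest in the second GFP-positive library. Without it, the ratio of means of AstC was 9.27, against 17.5 with it, and that of CNMa was 12.5, against 27.2. Peptides that were lower included tachykinin, Tk, with 1.40, 2.56 and 0.594 in GFP-positive libraries, against 8.11, 14.6 and 14.4 in GFP-negative libraries, a ratio of 8.17 in favour of GFP-negative cells, or 12.4 without the second GFP-positive library. Pdf, made by clock neurons, had 0.610, 0.139 and 0.557 in GFP-positive libraries, against 1.75, 9.69 and 5.49 in GFP-negative libraries, a ratio of 13.0 in favour of GFP-negative cells. It fell to 8.31 without the second GFP-negative library, and the call was then lost. Pdf reached the minimum value only through GFP-negative libraries, which favoured a fall. The abundant peptides sNPF and Nplp1 were not called, with 91.1, 376 and 127 in GFP-positive libraries, against 141, 188 and 136 in GFP-negative libraries for sNPF. Nplp1 had 197, 639.5 and 212 in GFP-positive libraries, against 249, 485 and 269 in GFP-negative libraries. Leaving out the second GFP-positive library moved the ratio of means of sNPF to 0.705, against 1.28 with it, and that of Nplp1 to 0.612, against 1.05.

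Receptors for peptides were higher in 21 of 42, against 25.7% of all genes, with 2 lower and a median log2 change of 0.87 as deposited and 0.60 after rescaling. Summed over the list, GFP-positive libraries held 975, 1883 and 1024, the second being the highest, against 527, 517 and 455 in GFP-negative libraries. CCKLR-17D3, a receptor for drosulfakinin, had 122, 127 and 123 in GFP-positive libraries, against 24.2, 29.7 and 29.3 in GFP-negative libraries, with little spread. CNMaR, the receptor for CNMamide, had 26.0, 65.8 and 29.5 in GFP-positive libraries, against 5.45, 7.68 and 5.87 in GFP-negative libraries, so both the peptide and its receptor were higher. In neither receptor did the groups overlap. The sex peptide receptor SPR had 53.0, 148 and 71.7 in GFP-positive libraries, against 20.5, 18.99 and 18.2 in GFP-negative libraries. TkR86C, a tachykinin receptor, had 39.8, 126 and 52.7 in GFP-positive libraries, against 14.99, 14.8 and 12.2 in GFP-negative libraries, its ratio of 5.21 becoming 3.3 without the second GFP-positive library. The second GFP-positive library was the highest for TkR86C, and 27% of the exonic length of SPR overlaps frma. Dh44-R2, a diuretic hormone receptor, had 119.3, 113 and 118 in GFP-positive libraries, against 29.8, 18.7 and 19.9 in GFP-negative libraries, with 33% shared. A receptor that was lower was the G protein-coupled receptor gene hec, with 3.05, 7.34 and 2.90 in GFP-positive libraries, against 12.4, 10.4 and 10.6 in GFP-negative libraries.

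The list of peptide processing genes also holds Cadps, Sulf1, crc and twit. Its members were higher in 9 of 15, with 2 lower and a median log2 change of 0.76 as deposited and 0.46 after rescaling. Its sum was 8803, 17260 and 9406 in GFP-positive libraries, the second being the highest, against 3830, 5141 and 3813 in GFP-negative libraries. The chaperone 7B2, partner of the prohormone convertase, had 324, 797 and 332 in GFP-positive libraries, against 112, 195 and 135 in GFP-negative libraries. The convertase itself, amon, had 276, 607 and 276 in GFP-positive libraries, against 159, 209 and 148 in GFP-negative libraries, which missed the threshold at an adjusted p of 0.0515 and passed it in the paired fit. The heparan sulfatase gene Sulf1 was lower, with 15.3, 23.6 and 20.9 in GFP-positive libraries, against 52.2, 61.1 and 53.8 in GFP-negative libraries.

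Receptors for fast transmitters were higher or not called. Of 9 nicotinic acetylcholine receptor subunits 4 were higher, and 8 in the paired fit, with a median log2 change of 0.58 as deposited and 0.28 after rescaling. Those 4 rose by at least 2-fold, and nAChRalpha2 had 288, 299.8 and 294 in GFP-positive libraries, against 94.5, 114 and 118 in GFP-negative libraries. Of 17 glutamate receptor genes 8 were higher, with a median log2 change of 0.84 as deposited and 0.56 after rescaling. The glutamate-gated chloride channel GluClalpha had 399, 642 and 415 in GFP-positive libraries, against 168, 154 and 148 in GFP-negative libraries. The metabotropic receptor mGluR had 229, 285 and 230.3 in GFP-positive libraries, against 96.9, 99.4 and 73.0 in GFP-negative libraries. Ir25a, the widely used co-receptor of ionotropic sensory receptors, had 11.3, 10.5 and 19.8 in GFP-positive libraries, against 3.02, 2.09 and 2.33 in GFP-negative libraries. GABA and histamine receptors were higher in 4 of 10 (40%, against 25.7% of all genes), with a median log2 change of 0.51 as deposited and 0.23 after rescaling. Among 19 monoamine receptors 5 were higher (26.3%, a share near that of all genes), 8 in the paired fit, and 1 was lower, with a median log2 change of 0.39 as deposited and 0.09 after rescaling. The octopamine receptor Oamb had 92.9, 164 and 90.4 in GFP-positive libraries, against 28.7, 41.3 and 26.9 in GFP-negative libraries.

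Ion channel families differed in direction. Sodium, calcium and pacemaker channels and their partners were higher in 9 of 18, with a median log2 change of 0.72 as deposited and 0.42 after rescaling. The calcium channel subunit stj had 224, 265 and 226 in GFP-positive libraries, against 133, 116 and 123 in GFP-negative libraries. tipE, an auxiliary subunit of the sodium channel, had 71.6, 105 and 78.4 in GFP-positive libraries, against 40.9, 46.0 and 35.7 in GFP-negative libraries. Of 22 potassium channel genes 8 were higher (36.4%, against 25.7% of all genes) and 1 lower, or 2 lower in the paired fit. Their median log2 change was 0.45 as deposited and 0.21 after rescaling. Among 29 TRP and DEG/ENaC channel genes TrpA1 was the single one higher and 1 was lower, or 5 in the paired fit, with a median log2 change of -0.29 as deposited and -0.48 after rescaling, when 1 was called higher and 3 lower. Leaving out 12 with the minimum value in fewer than 3 libraries of one fraction or the other left 17, with a median of -0.01 as deposited. Innexins, which form gap junctions, were lower in 3 of 5, against 12.3% of all genes, and higher in 1, Inx7, with a median log2 change of -0.72 as deposited and -1.02 after rescaling. Inx3 had 6.25, 6.04 and 5.65 in GFP-positive libraries, against 106, 151 and 126 in GFP-negative libraries. ogre had 209, 166 and 190.0 in GFP-positive libraries, against 401, 509.5 and 458 in GFP-negative libraries.

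Synaptic vesicle and active zone genes were higher in 24 of 39, with a median log2 change of 0.67 as deposited and 0.37 after rescaling, when 16 were called higher. The synaptotagmin Syt4 had 1008, 1126 and 995 in GFP-positive libraries, against 472, 515 and 487 in GFP-negative libraries. Rph, rabphilin, had 157, 146 and 142 in GFP-positive libraries, against 76.8, 71.8 and 73.6 in GFP-negative libraries. The release factor Cadps had 721, 696 and 692 in GFP-positive libraries, against 417, 410.0 and 419 in GFP-negative libraries. Of 27 neuronal microtubule genes 12 were higher, against 25.7% of all genes, with a median log2 change of 0.31 as deposited and 0.01 after rescaling, when 6 were called, all higher, and 1 was lower in the paired fit. The microtubule protein tau had 407, 512 and 399 in GFP-positive libraries, against 183, 203 and 192 in GFP-negative libraries. The RNA-binding protein gene bru3 was also higher, with 981, 1616 and 1130.3 in GFP-positive libraries, against 287, 272 and 267 in GFP-negative libraries.

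Cell surface families that pair neurons during wiring differed between members. The beat genes, receptors of the sidestep family, were higher in 10 of 13, with a median log2 change of 0.92 as deposited and 0.63 after rescaling, when 7 were higher and 1 lower. beat-Vc had 86.6, 107 and 86.2 in GFP-positive libraries, against 30.9, 35.7 and 33.8 in GFP-negative libraries. Of the 8 sidestep genes 5 were higher and 1 lower, with a median log2 change of 0.89 as deposited and 0.59 after rescaling. side-VI had 206, 233 and 227 in GFP-positive libraries, against 103.8, 91.3 and 89.7 in GFP-negative libraries, and side-V ran against the others, with 86.2, 112 and 92.1 in GFP-positive libraries, against 187, 147 and 189 in GFP-negative libraries.

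The dpr genes and their DIP partners showed unlike patterns. Of 21 dpr genes 7 were higher (33.3%, against 25.7% of all genes), with a median log2 change of 0.67 as deposited and 0.39 after rescaling. In the paired fit 18 were higher, where 3165 of all 9912 genes were. dpr12 had 255, 290.0 and 219 in GFP-positive libraries, against 105, 104.3 and 84.8 in GFP-negative libraries. dpr7 had 522, 587 and 527 in GFP-positive libraries, against 249, 301 and 267 in GFP-negative libraries. Of 11 DIP genes 4 were higher (36.4%, against 25.7% of all genes) and 3 lower (27.3%, against 12.3%). Their median log2 change was 0.14 as deposited and -0.15 after rescaling, when 3 were higher and 3 lower. DIP-theta stood far from its relatives, with 201, 187 and 207 in GFP-positive libraries, against 21.9, 24.1 and 22.4 in GFP-negative libraries and a log2 change of 3.06 ± 0.15 (SE, n = 3 each, limma adjusted p = 1.20e-08); 13% of its exonic length overlaps a non-coding RNA. DIP-eta went the other way, with 18.9, 13.1 and 11.9 in GFP-positive libraries, against 40.7, 31.1 and 32.1 in GFP-negative libraries.

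Guidance and adhesion genes changed in both directions, and their medians turned sign with the scaling. The list of Slit, Robo and Netrin genes also holds other genes, among them Drl-2, dnt, Dscam2 and Ptp99A. It had 10 of 24 higher and 7 lower, with a median log2 change of 0.27 as deposited and -0.03 after rescaling, when 4 were higher and 7 lower. Drl-2 and drl, both receptors of the Derailed family, moved in opposite directions. Drl-2 had 279, 275 and 235 in GFP-positive libraries, against 88.8, 77.9 and 84.3 in GFP-negative libraries, whereas drl had 78.6, 98.6 and 75.1 in GFP-positive libraries, against 490.2, 566 and 603 in GFP-negative libraries. Con, connectin, a homophilic adhesion protein of motor axons and muscles, had 613, 629.5 and 601 in GFP-positive libraries, against 223, 237 and 208 in GFP-negative libraries. E-cadherin, shg, was lower, with 70.3, 49.8 and 67.9 in GFP-positive libraries, against 176, 251 and 220.0 in GFP-negative libraries, and so was the atypical cadherin ft, with 6.21, 3.72 and 6.54 in GFP-positive libraries, against 30.3, 27.8 and 18.9 in GFP-negative libraries.

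Transcription factors differed widely between the fractions. All Hox genes tested were lower, and 11 of 12 members of the list that adds their cofactors were lower, against 12.3% of all genes, with a median log2 change of -2.67 as deposited and -2.94 after rescaling. Leaving out 2 that reached the minimum value only through GFP-negative libraries gave 9 lower and 1 higher of 10. Hox genes set segment identity along the body, and in the nervous system are active mainly in the ventral nerve cord and the hindmost brain. Antp had 8.62, 6.88 and 4.68 in GFP-positive libraries, against 139, 167 and 157 in GFP-negative libraries, although 50% of its exonic length overlaps CG46458. Ubx had 1.94, 1.30 and 1.56 in GFP-positive libraries, against 26.1, 27.4 and 26.8 in GFP-negative libraries. Scr had 1.76, 1.67 and 2.12 in GFP-positive libraries, against 16.7, 23.3 and 17.04 in GFP-negative libraries. In each of the 3 every GFP-positive library lay below every GFP-negative one. tsh, a zinc finger gene of the trunk, had 10.3, 7.15 and 7.06 in GFP-positive libraries, against 162, 199 and 202 in GFP-negative libraries. The cofactor exd alone was called higher, with 702, 708 and 700.0 in GFP-positive libraries, against 463, 545 and 499 in GFP-negative libraries, a call lost after rescaling.

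LIM and POU factors, which set neuronal identity, were lower in 6 of 11 and higher in 3, with a median log2 change of -0.94 as deposited and -1.24 after rescaling. vvl had 3.52, 3.02 and 3.60 in GFP-positive libraries, against 70.7, 79.8 and 68.0 in GFP-negative libraries. tup, the islet homologue, had 28.5, 23.6 and 23.1 in GFP-positive libraries, against 112, 131 and 122 in GFP-negative libraries. acj6 had 5.35, 3.62 and 4.72 in GFP-positive libraries, against 38.05, 24.96 and 27.1 in GFP-negative libraries. CG4328 and Lmx1a, both of the LIM homeobox class, were higher. CG4328 had 98.4, 104.2 and 86.5 in GFP-positive libraries, against 20.8, 26.0 and 20.9 in GFP-negative libraries. Lmx1a had 141, 159 and 143 in GFP-positive libraries, against 50.5, 67.5 and 61.3 in GFP-negative libraries.

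The remaining homeodomain and identity factors were lower in 26 and higher in 14 of 51, with a median log2 change of -0.59 as deposited and -0.89 after rescaling. Leaving out 10 members that reached the minimum value through a single fraction gave 18 lower and 14 higher of 41, with a median of -0.31 as deposited. Among the higher ones, otp (orthopedia, arm 2R, 20883625 to 20903414) had 536, 560.4 and 529 in GFP-positive libraries, against 48.5, 48.5 and 47.2 in GFP-negative libraries. It was not called with DESeq2, where a gene left without an adjusted p also counts as not called. Whether that applied to otp was not examined. Gsc, goosecoid, had 84.8, 96.3 and 79.1 in GFP-positive libraries, against 6.20, 7.59 and 5.79 in GFP-negative libraries. CG18599, a homeobox gene, had 89.3, 91.0 and 102 in GFP-positive libraries, against 5.29, 7.89 and 5.31 in GFP-negative libraries. For these 3 genes the groups were far apart. The homeobox gene NK7.1 had 179, 214 and 202 in GFP-positive libraries, against 53.7, 57.7 and 55.6 in GFP-negative libraries. Several genes of eye and optic lobe determination were higher. The retinal determination factor so had 114, 102 and 116 in GFP-positive libraries, against 8.55, 13.2 and 14.4 in GFP-negative libraries. Its partner eya had 538, 520.1 and 547 in GFP-positive libraries, against 80.4, 112 and 95.4 in GFP-negative libraries. The photoreceptor zinc finger factor gl had 61.0, 110.4 and 62.0 in GFP-positive libraries, against 10.7, 7.94 and 9.44 in GFP-negative libraries. These 3 had no overlap between the groups. bsh, the brain-specific homeobox gene, had 89.4, 88.0 and 101 in GFP-positive libraries, against 27.4, 25.3 and 28.6 in GFP-negative libraries. The list of optic lobe and eye genes as a whole was lower in 11 of 24 and higher in 7, with a median log2 change of -0.65 as deposited and -0.88 after rescaling. Leaving out 2 that reached the minimum value through a single fraction gave 10 lower and 7 higher of 22. Among the homeodomain genes that were lower, the Iroquois gene mirr had 4.27, 2.46 and 3.46 in GFP-positive libraries, against 101, 125 and 118 in GFP-negative libraries. Ptx1, of the Pitx class, had 1.54, 0.511 and 1.60 in GFP-positive libraries, against 48.9, 54.5 and 57.4 in GFP-negative libraries. Both were lower in every GFP-positive library. The homeobox gene CG11294 had 2.84, 1.67 and 2.01 in GFP-positive libraries, against 99.2, 102 and 111 in GFP-negative libraries. zfh1, a zinc finger and homeodomain gene of motor neurons, had 19.5, 25.2 and 17.8 in GFP-positive libraries, against 157, 151 and 159.7 in GFP-negative libraries.

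**Figure D4:**
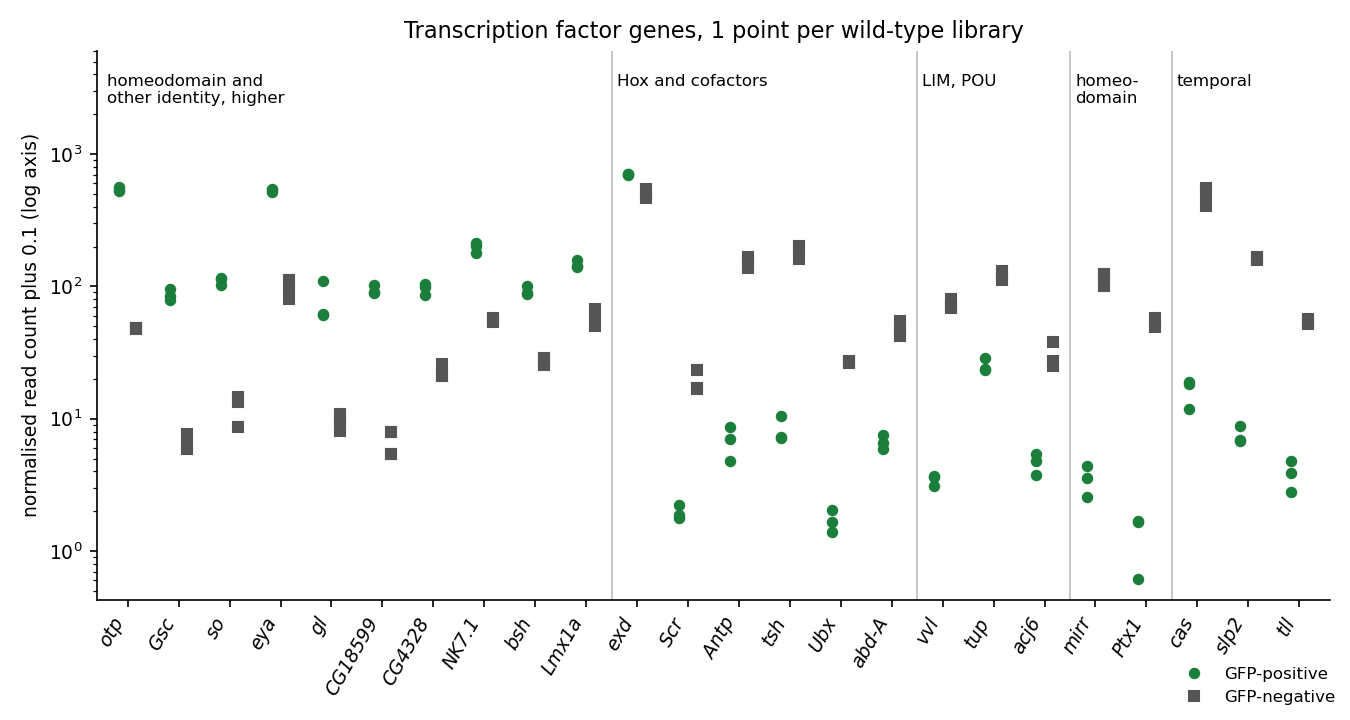
Normalised reads plus 0.1 (log y axis) of transcription factor genes, 1 point per wild-type library, GFP-positive left of GFP-negative. The 10 genes at the left and exd are higher in all 3 GFP-positive libraries, and the other 13 lower. The call for exd is lost after rescaling, and otp has no call with DESeq2, which may mean a missing adjusted p.

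Factors that mark the age and lineage position of progenitors were lower in 12 of 23 and higher in 4, with a median log2 change of -0.82 as deposited and -1.12 after rescaling. castor, cas, had 11.8, 18.2 and 18.8 in GFP-positive libraries, against 406, 555 and 499 in GFP-negative libraries. The forkhead gene slp1 had 4.60, 7.15 and 5.35 in GFP-positive libraries, against 72.5, 56.7 and 61.7 in GFP-negative libraries. Its neighbour slp2 had 6.79, 8.73 and 6.65 in GFP-positive libraries, against 165, 167 and 158 in GFP-negative libraries. In all 3 every GFP-positive library lay below every GFP-negative one. The nuclear receptor tll had 4.67, 3.76 and 2.67 in GFP-positive libraries, against 56.6, 55.1 and 51.8 in GFP-negative libraries. Dichaete, D, and the zinc finger gene dati were higher. D had 388, 407 and 441 in GFP-positive libraries, against 196, 241 and 226 in GFP-negative libraries. For dati the values were 654, 494 and 606 in GFP-positive libraries, against 224, 179 and 191 in GFP-negative libraries. The late temporal factor Syp was slightly lower, with 381, 335 and 313 in GFP-positive libraries, against 474, 515 and 435 in GFP-negative libraries.

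Neuroblast and progenitor factors fell, with 22 of 28 lower, 5 higher and a median log2 change of -2.07 as deposited and -2.27 after rescaling, when 3 were called higher and 22 lower. Leaving out 3 that reached the minimum value only through GFP-negative libraries gave 19 lower and 5 higher of 25. wor, a snail family gene of neuroblasts, had 5.96, 6.04 and 5.61 in GFP-positive libraries, against 409.9, 476 and 443 in GFP-negative libraries, the deepest fall of the comparison, at a log2 change of -6.01 ± 0.13 (SE, n = 3 each, limma adjusted p = 1.91e-11). ase had 4.88, 3.90 and 3.72 in GFP-positive libraries, against 277, 336 and 329 in GFP-negative libraries. ase encodes a proneural factor kept in neuroblasts. The bHLH gene tap had 4.42, 4.92 and 5.91 in GFP-positive libraries, against 205.2, 304 and 294 in GFP-negative libraries. Sox21b ran against them, with 164, 135 and 145 in GFP-positive libraries, against 32.2, 23.2 and 28.4 in GFP-negative libraries.

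Genes of asymmetric division were lower in 12 of 24 and higher in 5, with a median log2 change of -0.85 as deposited and -1.13 after rescaling, when 1 was called higher and 14 lower. The adaptor mira had 6.32, 5.90 and 5.68 in GFP-positive libraries, against 150.2, 210.0 and 180.3 in GFP-negative libraries. The heterotrimeric G protein subunit Galphai had 9.37, 7.34 and 7.36 in GFP-positive libraries, against 214, 247 and 218 in GFP-negative libraries. insc, the scaffold that orients the spindle, had 2.62, 0.650 and 2.90 in GFP-positive libraries, against 52.9, 63.6 and 62.0 in GFP-negative libraries. All 3 act at the cortex of dividing neuroblasts. pon, partner of numb, had 6.43, 5.71 and 7.84 in GFP-positive libraries, against 89.1, 105 and 98.5 in GFP-negative libraries. The tumour suppressor brat was instead higher, with 2814, 2574 and 2486 in GFP-positive libraries, against 1722, 1604 and 1466 in GFP-negative libraries, a call lost after quantile normalisation.

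The Notch receptor gene and its direct targets were lower, and the calls of the pathway list depended on scaling. The receptor gene N had 13.00, 10.1 and 12.2 in GFP-positive libraries, against 166, 187 and 146 in GFP-negative libraries. Its ligand Ser had 2.87, 2.28 and 2.67 in GFP-positive libraries, against 20.7, 15.3 and 18.7 in GFP-negative libraries. spdo, which Notch needs in asymmetric divisions, had 5.60, 4.41 and 5.76 in GFP-positive libraries, against 222, 275 and 283 in GFP-negative libraries. All 14 tested genes of the E(spl) complex, direct Notch targets, were lower, with a median log2 change of -3.35 as deposited and -3.57 after rescaling. Of these, 1 reached the minimum value only through GFP-negative libraries, and the other 13 were lower too. E(spl)mgamma-HLH had 13.6, 4.65 and 13.9 in GFP-positive libraries, against 239, 263 and 276 in GFP-negative libraries. E(spl)malpha-BFM had 2.76, 2.09 and 5.24 in GFP-positive libraries, against 45.6, 60.2 and 71.8 in GFP-negative libraries. Hey, a Notch target of newborn neurons, was lower as well, with 98.4, 88.3 and 92.3 in GFP-positive libraries, against 538, 571 and 464 in GFP-negative libraries. Of the 24 pathway genes 9 were lower (37.5%, against 12.3% of all genes) and 6 higher (25%, against 25.7%). Their median log2 change was -0.13 as deposited and -0.43 after rescaling, when 1 was called higher and 13 lower.

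Most cell cycle genes were lower. DNA replication genes were lower in 35 of 38, with a median log2 change of -1.61 as deposited and -1.88 after rescaling. Without 1 that reached the minimum value only through GFP-negative libraries, 34 of 37 were lower. The helicase subunit Mcm2 had 6.39, 6.92 and 6.09 in GFP-positive libraries, against 65.9, 117 and 103 in GFP-negative libraries. The ribonucleotide reductase subunit RnrS had 4.27, 4.04 and 3.86 in GFP-positive libraries, against 63.6, 102 and 86.8 in GFP-negative libraries. Mitotic genes were lower in 45 of 64 and higher in 9, with a median log2 change of -1.88 as deposited and -2.13 after rescaling, when 2 were called higher and 48 lower. Without 1 such gene, 44 of 63 were lower and 9 higher. Cyclin A had 8.47, 8.45 and 7.06 in GFP-positive libraries, against 186, 254 and 216 in GFP-negative libraries. The phosphatase stg, which starts mitosis, had 10.02, 10.8 and 8.47 in GFP-positive libraries, against 141, 153 and 151 in GFP-negative libraries. The citron kinase sti, of cytokinesis, had 15.6, 11.2 and 14.1 in GFP-positive libraries, against 330.0, 388 and 369 in GFP-negative libraries. In each of these 5 genes the GFP-positive libraries lay between 3.86 and 15.6 normalised reads. The higher members included CycG, with 1516, 1724 and 1612 in GFP-positive libraries, against 963, 1114 and 1032 in GFP-negative libraries, which is not a mitotic cyclin.

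Glial genes did not move one way, with 9 higher and 9 lower of 28 and a median log2 change of -0.22 as deposited and -0.47 after rescaling. Leaving out 1 that reached the minimum value only through GFP-negative libraries gave 9 higher and 8 lower of 27. The glial switch gene gcm had 1.65, 0.743 and 1.63 in GFP-positive libraries, against 50.4, 42.5 and 49.4 in GFP-negative libraries. Its relative gcm2 had 0.718, 0.0929 and 1.003 in GFP-positive libraries, against 18.8, 16.7 and 20.2 in GFP-negative libraries. Both act early in gliogenesis and were lower in every GFP-positive library. The pan-glial factor repo was not called, with 22.8, 25.7 and 4.61 in GFP-positive libraries, against 19.4, 17.5 and 16.5 in GFP-negative libraries, the third GFP-positive library being the lowest of all 6. Basement membrane collagens, made by hemocytes and other cells, were low in the third library too. Col4a1 had 114, 109.6 and 38.1 in GFP-positive libraries, against 19.04, 5.50 and 14.5 in GFP-negative libraries. vkg had 79.7, 73.2 and 26.2 in GFP-positive libraries, against 10.9, 6.53 and 5.61 in GFP-negative libraries. Pxn, peroxidasin, had 73.9, 51.3 and 43.2 in GFP-positive libraries, against 20.3, 15.7 and 13.6 in GFP-negative libraries, while the hemocyte factors Hml and srp were not called.

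Signalling genes were mixed, and several list medians turned sign with the scaling. Wnt genes were higher in 10 of 24 and lower in 4, with a median log2 change of 0.24 as deposited and -0.06 after rescaling, when 3 were higher and 7 lower. Leaving out 1 that reached the minimum value only through GFP-negative libraries gave 10 higher and 3 lower of 23, as deposited. Wnt10 had 23.5, 31.5 and 26.4 in GFP-positive libraries, against 10.2, 6.74 and 7.34 in GFP-negative libraries. Wnt2 had 0.898, 0.511 and 0.966 in GFP-positive libraries, against 11.7, 16.5 and 12.9 in GFP-negative libraries. In the BMP and activin list 9 of 22 were higher and 7 lower, with a median log2 change of -0.01 as deposited and -0.31 after rescaling, when 7 were higher and 9 lower. The activin branch was higher in its ligand Actbeta, with 128, 176 and 112 in GFP-positive libraries, against 49.1, 64.4 and 46.8 in GFP-negative libraries, and its Smad, Smox, with 1246, 1217 and 1178 in GFP-positive libraries, against 584, 606 and 574 in GFP-negative libraries. The BMP ligands were lower. gbb had 5.31, 5.25 and 4.20 in GFP-positive libraries, against 24.1, 44.8 and 38.1 in GFP-negative libraries. dpp had 2.87, 2.32 and 1.97 in GFP-positive libraries, against 8.31, 10.5 and 9.86 in GFP-negative libraries. In the EGFR, FGF and JAK-STAT list 14 of 38 were higher and 11 lower, with a median log2 change of 0.18 as deposited and -0.10 after rescaling, when 8 were higher and 13 lower. Leaving out 2 with the minimum value in fewer than 3 libraries of one fraction or the other gave 14 higher and 10 lower of 36, as deposited. Egfr had 5.42, 5.06 and 3.57 in GFP-positive libraries, against 38.05, 46.2 and 40.4 in GFP-negative libraries. Its effector pnt had 5.74, 4.23 and 4.27 in GFP-positive libraries, against 42.5, 63.3 and 43.9 in GFP-negative libraries. Alk, a receptor tyrosine kinase of growing brains, was higher, with 544, 599 and 483 in GFP-positive libraries, against 222, 213 and 199 in GFP-negative libraries.

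Insulin pathway genes were higher in 9 of 16, with a median log2 change of 0.39 as deposited and 0.11 after rescaling, when 4 were called higher. Thor, the translation inhibitor 4E-BP, had 374, 499 and 359 in GFP-positive libraries, against 107, 162 and 152 in GFP-negative libraries. The kinase subunit Pi3K21B had 308, 369.7 and 331 in GFP-positive libraries, against 141, 150.1 and 140.1 in GFP-negative libraries. G protein and calcium signalling genes were higher in 22 of 52 and lower in 2, or 4 in the paired fit, with a median log2 change of 0.32 as deposited and 0.03 after rescaling. Calcineurin B, CanB, had 709, 895 and 697 in GFP-positive libraries, against 250.1, 325 and 259.7 in GFP-negative libraries. The activity-regulated gene Arc1 had 35.2, 63.3 and 42.3 in GFP-positive libraries, against 8.94, 11.1 and 9.52 in GFP-negative libraries.

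Clock genes were higher in 9 of 17, against 25.7% of all genes, and lower in 1, with a median log2 change of 0.42 as deposited and 0.13 after rescaling, when 5 were called higher and 1 lower. timeless, tim, had 72.4, 62.9 and 74.1 in GFP-positive libraries, against 9.42, 6.31 and 11.2 in GFP-negative libraries. Clk had 28.0, 27.5 and 23.4 in GFP-positive libraries, against 4.97, 2.05 and 3.54 in GFP-negative libraries, both with groups far apart. Their partner cyc had 167, 148 and 164 in GFP-positive libraries, against 82.2, 92.8 and 95.5 in GFP-negative libraries. Pdf, given above, was the 1 that was lower, and it reached the minimum value only through GFP-negative libraries. Without it 9 of 16 were higher and 0 lower. The steroid receptor EcR and its target Eip75B were higher. EcR had 292, 366 and 289 in GFP-positive libraries, against 162, 174 and 157 in GFP-negative libraries. Eip75B had 647, 614 and 649 in GFP-positive libraries, against 369.9, 344 and 304 in GFP-negative libraries. Both act at the larval to pupal transition. Hr51, a nuclear receptor of mushroom body neurons, was lower, with 1.97, 1.44 and 1.08 in GFP-positive libraries, against 29.2, 34.4 and 34.6 in GFP-negative libraries. The organic anion transporter Oatp26F had 131, 144 and 152 in GFP-positive libraries, against 16.5, 27.2 and 28.4 in GFP-negative libraries.

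Counts of housekeeping lists moved strongly with the scaling, and some with the paired fit, which kept the deposited scaling. Of 78 cytosolic ribosomal protein genes 1 was higher and 2 lower as deposited. Rescaling gave 61 lower, quantile normalisation 49 and the paired fit 40. Their median log2 change was -0.29 as deposited and -0.59 after rescaling. Less the median of all genes, it was -0.40 after rescaling, with edgeR and with DESeq2, and -0.59 after quantile normalisation. Oxidative phosphorylation genes were higher in 1 and lower in 2 of 70, 14 lower after rescaling, and 9 higher and 8 lower in the paired fit, with a median log2 change of 0.02 as deposited and -0.27 after rescaling. Proteasome genes were higher in 1 and lower in 1 of 34, and 15 were lower after rescaling, with a median log2 change of 0.00 as deposited and -0.30 after rescaling. Chromatin genes were lower in 7 and higher in 2 of 35, or 20 lower after rescaling and 4 higher in the paired fit.

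**Figure D5:**
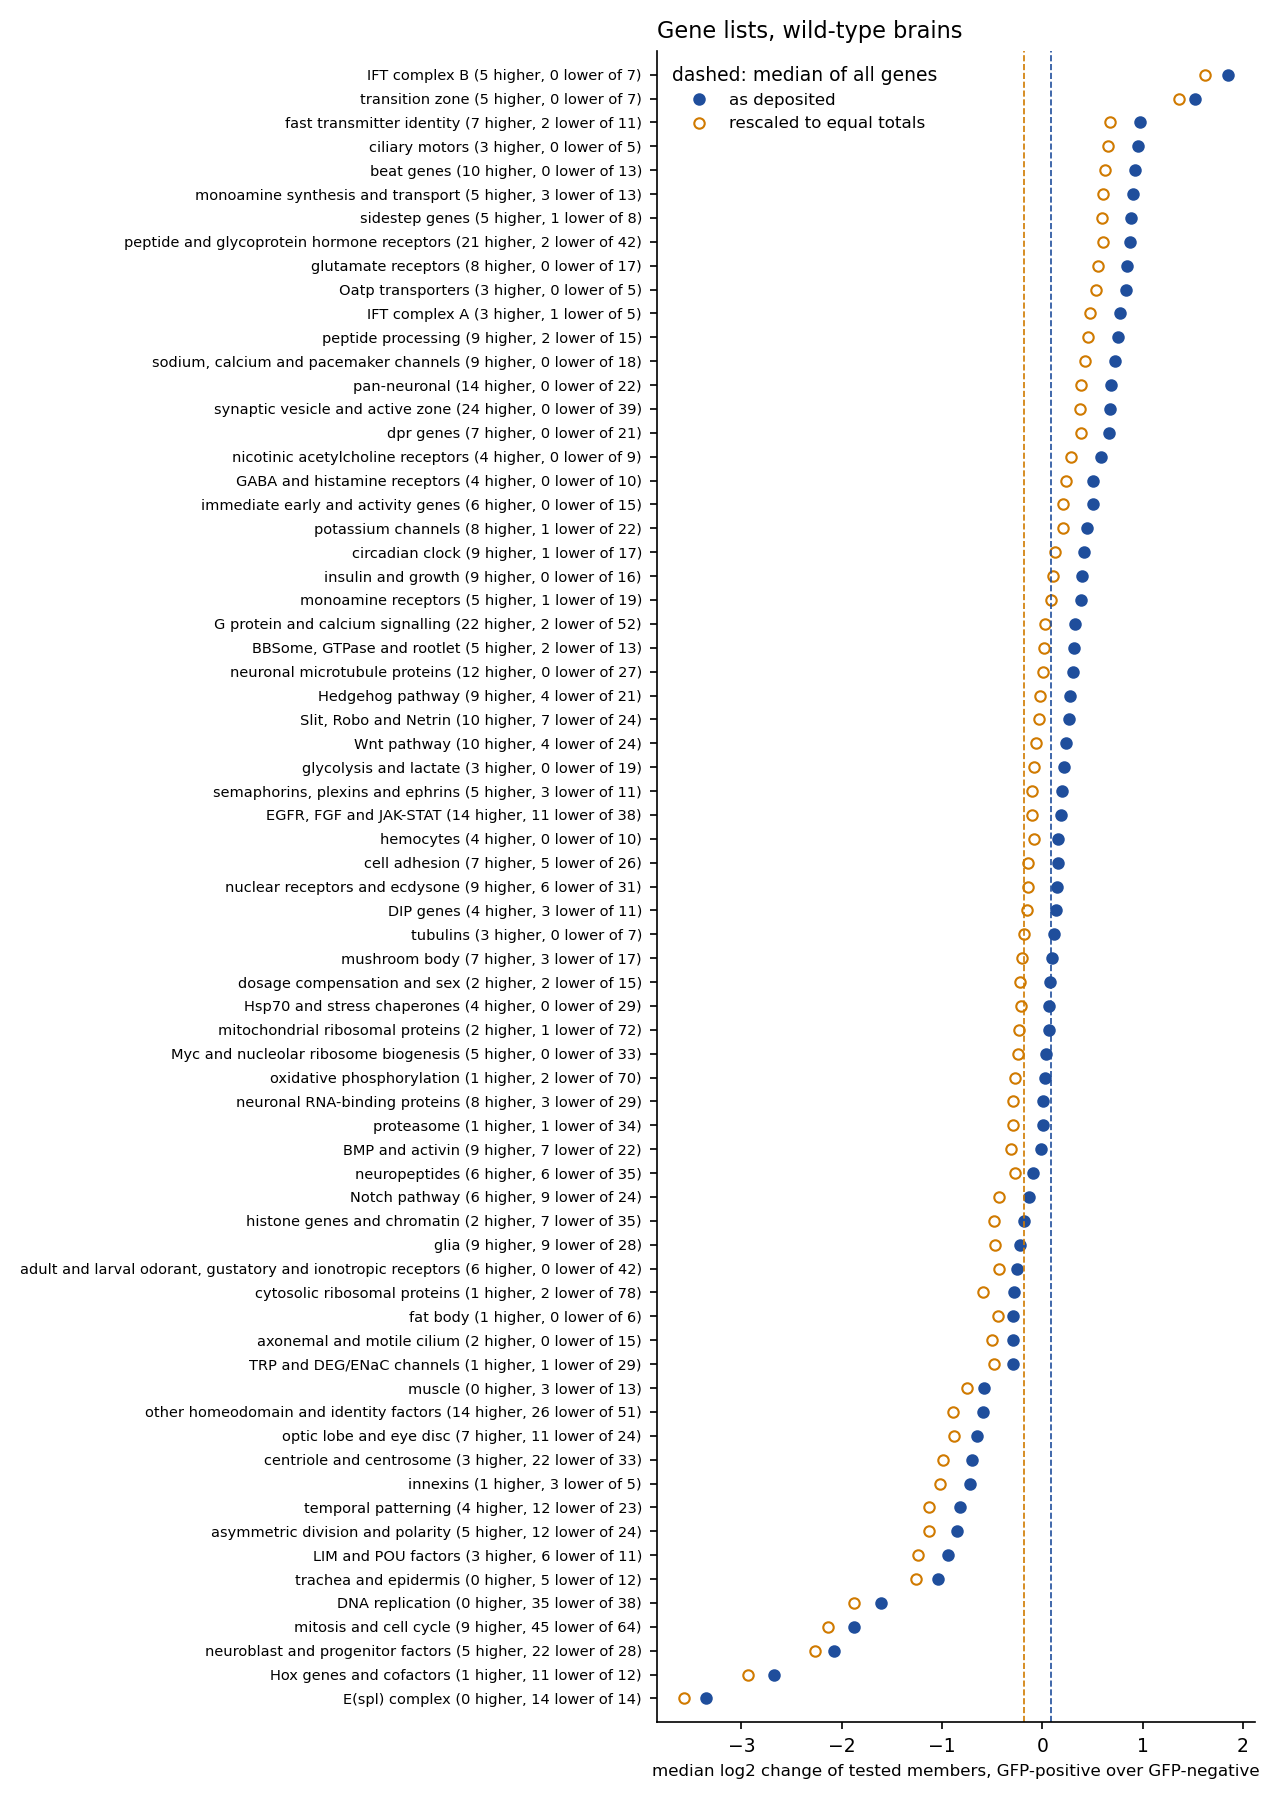
Median log2 change of the tested members of each gene list (x axis), GFP-positive over GFP-negative, as deposited (filled) and rescaled to equal totals (open), with counts called higher and lower. Dashed lines mark the median of all genes, 0.09 and -0.18. The E(spl) list lies lowest, at -3.35, and intraflagellar transport complex B highest, at 1.85, as deposited; medians near 0 change sign, and members that reach the minimum value through 1 fraction alone are included.

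Of 390 long non-coding RNAs 26 were higher (6.67%, against 25.7% of all genes) and 50 lower (12.8%, against 12.3%), with a median log2 change of -0.45. The deepest fall was that of CR30009, on arm 2R from 10261315 to 10263827, with 5.67, 2.79 and 4.72 in GFP-positive libraries, against 252, 211 and 211 in GFP-negative libraries. CR44832, on chromosome X from 5790952 to 5791536, had 5.996, 1.90 and 3.64 in GFP-positive libraries, against 93.3, 252 and 171 in GFP-negative libraries. CG12239, also on the X, is not among the genes classed as long non-coding RNAs but fell about as deeply. It had 8.94, 1.86 and 3.05 in GFP-positive libraries, against 133, 259 and 179.9 in GFP-negative libraries. Its ratio of 41.3 in favour of GFP-negative cells became 77.7 without the first GFP-positive library. In all 3 every GFP-positive library lay far below every GFP-negative one. Among the higher long non-coding RNAs besides noe was CR45659, with 23.02, 18.1 and 25.6 in GFP-positive libraries, against 6.76, 5.55 and 6.25 in GFP-negative libraries. Genes of the small chromosome 4 were higher in 38 of 91 (41.8%) and lower in 8, with a median of 0.26.

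The same sort in rfx knockout brains, which shares no library with the wild-type comparison, called 2341 genes higher (23.6%) and 1274 lower (12.9%). Of the 2550 genes higher in wild-type, 74.9% were called higher in knockout brains too, which is 81.6% of the knockout list. Of the 1215 lower genes, 83.2% were lower there, or 79.4% of that list. Among genes with at least a 2-fold change, 520 of 581 higher and 616 of 660 lower kept call and direction. The interaction of genotype with GFP was called for 55 genes (0.555%), or 108 in the paired fit, and 48 of the 55 were called in wild-type.

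Genes whose difference depended on genotype fell into several of the groups above. Among ciliary genes, nompB had 1.76, 4.58 and 1.68 in knockout GFP-positive libraries, against 0.648, 0.497 and 1.22 in knockout GFP-negative libraries, a WT minus KO difference in log2 change of 4.80. hmw had 0.299, 0.705 and 0.509 in knockout GFP-positive libraries, against 0.679, 0.568 and 0.567 in knockout GFP-negative libraries, a difference of 3.47. As given above, hmw reached the minimum value only through wild-type GFP-positive libraries, which favoured such a difference. Klp68D, Kap3, Klp64D and Oseg1 were not called for the interaction and were higher in both genotypes. otp had 3.78, 29.7 and 4.23 in knockout GFP-positive libraries, against 37.0, 35.7 and 35.4 in knockout GFP-negative libraries, so it was lower in knockout GFP-positive cells than in their GFP-negative counterparts, least so in the second library. Oatp26F turned likewise, with 3.07, 5.84 and 5.13 in knockout GFP-positive libraries, against 16.8, 17.7 and 20.1 in knockout GFP-negative libraries. In neither gene did the knockout groups overlap. Gad1, low in wild-type GFP-positive cells, had 318, 556 and 256 in knockout GFP-positive libraries, against 416, 675 and 179.7 in knockout GFP-negative libraries. CG14989 had 1147, 1556 and 924 in knockout GFP-positive libraries, against 1171, 1512 and 843 in knockout GFP-negative libraries, and neither gene was called between the knockout fractions. Ms, the largest rise in wild-type, had 1.46, 39.6 and 1.06 in knockout GFP-positive libraries, against 0.988, 0.852 and 0.741 in knockout GFP-negative libraries, so that it was raised in the second knockout GFP-positive library alone, and neither the knockout difference nor the interaction was called. wor and CycA were lower in knockout GFP-positive cells too. wor had 6.21, 6.54 and 9.24 in knockout GFP-positive libraries, against 519, 609 and 564 in knockout GFP-negative libraries. CycA had 9.28, 6.90 and 9.32 in knockout GFP-positive libraries, against 191, 227 and 239 in knockout GFP-negative libraries.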

How the data were processed

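RNA-seq values of 12 libraries of sorted larval brain cells were deposited as one table of normalised signal per gene. Build BDGP6, edgeR 3.10.5, HTSeq 0.6.1 and TopHat2 2.0.13 appear, without roles, in the submitters' processing notes. The deposited signal of each column is a whole-number multiple, within a tolerance of 0.001, of what 1 read is worth in that library, so whole reads per gene could be recovered for 100% of values. Gene names and overlaps came from annotation BDGP6.54, which held 12389 of the 12610 genes. Values of at least 1 in 3 or more libraries were kept, log2(value + 1) was taken, and limma 3.58.1 in R 4.3.3 fitted group means over all 12 libraries, with Benjamini-Hochberg adjustment over 9912 genes. Fold changes on this scale understate changes of low genes. Recovered reads were also tested with edgeR 4.0.16, which called 1953 genes higher and 1560 lower, and with DESeq2 1.42.0. The fits were tested on simulated data.

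Named genes were Rfx, the 16 largest changes each way among called genes without overlap and with a higher-group mean of at least 5, the 8 most abundant each way with at least a 2-fold ratio, 5 long non-coding RNAs each way, and from each of 69 lists up to 6 called members by smallest p, up to 3 against the majority and up to 2 abundant uncalled ones, plus cell type markers. The text prints a selection of these. Members and lists were chosen with earlier results of these data known. Libraries with adjacent sample numbers in the labels were checked as pairs by the correlation of their deviations from group means, which was 0.378, 0.371 and 0.258 in wild-type and 0.113 to 0.573 over all 6 pairs, so a fit with pairs as a block was run beside the main one. With 3 against 3 libraries an exact permutation test cannot go below p = 0.1. Other alternatives were a pseudocount of 0.25, other filters, other scalings, lane as a covariate and leaving out each library.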

Additional observations from a re-analysis of the deposited data

Results flagged for a closer look

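The difference between GFP-positive and GFP-negative cells itself differed between wild-type and knockout brains, by the interaction of genotype with GFP (limma, Benjamini-Hochberg adjusted p under 0.05 over all genes tested), for the genes that follow, among those named above. Each value is the wild-type log2 change minus the knockout log2 change. Values above 0 were 5.48 for otp, 4.8 for nompB, 4.34 for Oatp26F, 4.22 for IFT52, 3.47 for hmw and 3.13 for nmdyn-D7. Smaller ones were 2.68 for Fam92, 2.50 for dnd, 2.27 for IFT57, 1.94 for Ir25a, 1.65 for Root, 1.62 for IFT43, 1.59 for B9d1, 1.24 for DIP-theta, 0.85 for Rfx and 0.77 for Drl-2. Values below 0 were -1.55 for zfh1, -1.72 for Hr51, -2.89 for Hdc, -4.02 for Gad1, -4.61 for CG14989 and, of the genes given further down, -0.75 for ey.

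Of these, the ciliary genes nompB, IFT52, IFT57, IFT43, Fam92, B9d1, dnd, Root, hmw and nmdyn-D7 all had a higher log2 change in wild-type than in knockout brains. B9d1, dnd and hmw reached the minimum value only through wild-type GFP-positive libraries, which favoured that direction. IFT52, IFT43, Root and nmdyn-D7 were called lower in knockout GFP-positive cells, the opposite of wild-type. IFT52 had 0.112, 0.157 and 0.588 in knockout GFP-positive libraries, against 1.51, 1.28 and 1.87 in knockout GFP-negative libraries. Fam92 had 8.42, 7.76 and 5.17 in knockout GFP-positive libraries, against 2.35, 1.31 and 1.003 in knockout GFP-negative libraries. Rfx had 1322, 1035 and 1021 in knockout GFP-positive libraries, against 52.3, 52.3 and 54.5 in knockout GFP-negative libraries, so its transcript followed the sort in knockout brains as well, and the position of the knockout allele in the transcript is not given in the sources used here. DIP-theta had 101, 108 and 84.2 in knockout GFP-positive libraries, against 29.4, 31.7 and 20.4 in knockout GFP-negative libraries, and zfh1 had 68.5, 77.8 and 59.2 in knockout GFP-positive libraries, against 169.9, 164 and 178 in knockout GFP-negative libraries.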

How the results depend on the processing

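The balance of higher and lower genes depended on scaling. Rescaling to equal totals gave 1133 higher and 2263 lower genes in wild-type, 293 of them at least 2-fold higher, and 1344 higher and 2029 lower in knockout. Rescaling without rRNA genes, chosen after seeing the data, gave 1432 higher and 2129 lower, with 339 at least 2-fold higher. DESeq2 gave 1899 lower. Quantile normalisation gave 2244 higher and 1685 lower. The genotype interaction, 55 genes as reported, was called for 117 with DESeq2 (46 with a wild-type minus knockout difference above 0, 71 below 0) and for 108 with the replicate block (53 and 55). Leaving out 1 library at a time gave 34 to 51 (17 to 25 and 17 to 29), the lowest total without the first knockout GFP-negative library. The 17 recurred without the first wild-type GFP-positive library and without the second, or without the third, wild-type GFP-negative library. For the wild-type comparison leaving out 1 library gave 1916 to 2499 higher and 991 to 1373 lower. The paired fit gave 3165 higher and 1739 lower; beyond the changes printed above it changed no other call among the genes named in the text. Those were ChAT, Vmat and amon, called higher, and the list counts. Of the genes that the rule named, 2 reversed: alphaTub84D to a log2 change of -0.29 after rescaling (adjusted p = 0.0419) and Klp10A to -0.25 after quantile normalisation (adjusted p = 0.0262). The cause was not tested in either. Values well under 1 normalised read rest on few reads and are limited by depth.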

Other observations

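Of 17 genes used in the mushroom body, the memory centre of the fly brain, 7 were higher and 3 lower, with a median log2 change of 0.09 as deposited and -0.21 after rescaling, when 3 were higher and 5 lower. The paired Pax6 homologues parted, since toy was higher and ey lower. toy had 560.4, 528 and 531 in GFP-positive libraries, against 265, 276 and 271 in GFP-negative libraries. ey had 63.0, 64.5 and 62.9 in GFP-positive libraries, against 126, 134 and 127 in GFP-negative libraries. The vesicular transporter prt, of mushroom body neurons, was lower, with 6.97, 14.96 and 5.13 in GFP-positive libraries, against 36.2, 41.7 and 28.7 in GFP-negative libraries. No library of these 3 genes crossed into the range of the opposite fraction.

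Of 15 activity-regulated genes 6 were higher, against 25.7% of all genes, with a median log2 change of 0.50 as deposited and 0.21 after rescaling, when 3 were called, all higher. The Fos homologue kay had 164, 158 and 169 in GFP-positive libraries, against 103, 99.2 and 112 in GFP-negative libraries, a call lost after rescaling. Among 5 tested organic anion transporters 3 were higher. Oatp74D, which carries ecdysone into cells, had 153, 363 and 139 in GFP-positive libraries, against 41.3, 68.8 and 46.0 in GFP-negative libraries. Of 12 tracheal and epidermal genes 5 were lower, or 10 in the paired fit, with a median log2 change of -1.03 as deposited and -1.26 after rescaling. The list includes grh (grainy head), which neuroblasts also make, with 6.21, 3.62 and 6.87 in GFP-positive libraries, against 43.1, 45.9 and 42.5 in GFP-negative libraries. The groups of these 3 genes did not overlap.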
